A study of Rattus norvegicus with 6 samples.

Results

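The AP-1 and Egr transcription factors were followed through 10 genes: the Fos family members Fos, Fosb, Fosl1 and Fosl2, the Jun family members Jun, Junb and Jund, and the Egr family members Egr1, Egr2 and Egr3. They were chosen by gene symbol, and each of the 10 had 1 probe set among the 15037 genes tested. The cells were primary airway basal cells from the trachea of rats (Sprague Dawley, wild type, male, 12 weeks old). Per the labels' protocols, 3 lines were made, each from 3 pooled rats, and each line was divided at isolation between BEGM and EpiX, which are culture media for epithelial cells. RNA was taken after 8 days, which gave 3 arrays per medium, and no array of uncultured tissue was used here, so each medium is compared only with the other. The arrays are called 1, 2 and 3 by the sample number in the labels. The titles differ from this: they give the number 3 to the arrays called 2 here and no number to those called 3, but set the same arrays together. Treating arrays that share a number as 1 line is an assumption, on which the paired and blocked values below rest.

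AP-1 is a dimer of proteins with a basic region and a leucine zipper, in which a Jun protein pairs with a Fos protein or with another Jun. Egr proteins bind GC-rich DNA through zinc fingers. Many genes of both families are immediate early genes, which growth factors, injury and stress switch on through MAP kinases and the serum response factor SRF, often within minutes and for a short time. A level after days of culture therefore shows the state at harvest. In airway and other epithelia these factors are known for their part in proliferation, wound repair and differentiation.

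None of the 10 genes passed the test between the media in the fit with the medium as the only term. By limma with Benjamini-Hochberg (BH) adjustment over all genes, 0 of 10 were called at an adjusted p under 0.05, against 5.78% of all genes tested, so a share near the background would come to less than 1 gene. At an unadjusted p under 0.05 there were 2 of the 10, Jund and Egr2, and 3377 of the 15037 genes. Jund was higher in EpiX by 0.92 ± 0.27 (SE, n = 3 per medium, log2 scale) and Egr2 differed by -1.40 ± 0.48, with adjusted p of 0.0992 and 0.147. With the sample number as a fixed block, Jund passed (limma adjusted p = 0.0435) in a fit that called 8.33% of all genes. With the number as a random block it did not (limma adjusted p = 0.0651). More of the variation over the arrays lay between sample numbers than between media for 8 of the 10 genes and for 53.5% of all genes, and the share between numbers was highest for Fos, Fosb and Fosl1. The median absolute difference was 0.24 over the 10 genes and 0.23 over all genes, while the median range over the 6 arrays was 1.48 over the 10 genes and 0.72 over all genes.

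Promoter sequences are shown for Jund and Egr2, with the largest shares of variation between media, and for Fosb and Fosl1, with large shares between sample numbers. Neither the differences between media in the fit above nor those between numbers passed after adjustment over all genes. The sequences are the 250 bases before the start of each gene, from RefSeq on the GRCr8 build, written 5′ to 3′ on the strand of the gene. Of the 10 genes, 7 matched the promoter table, and Fos, Jun and Egr3 did not. Capitals mark matches, on either strand, to the CArG box bound by SRF, to the cyclic AMP response element TGACGTCA, to the AP-1 site TGACTCA or to the Egr site GCGNGGGCG, none of which overlap in these windows. The Jund window lies at chr16:18769772-18770021 on the minus strand, that of Egr2 at chr20:21054442-21054691 on the minus strand, that of Fosb at chr1:88089185-88089434 on the minus strand and that of Fosl1 at chr1:212183635-212183884 on the plus strand.
Jund: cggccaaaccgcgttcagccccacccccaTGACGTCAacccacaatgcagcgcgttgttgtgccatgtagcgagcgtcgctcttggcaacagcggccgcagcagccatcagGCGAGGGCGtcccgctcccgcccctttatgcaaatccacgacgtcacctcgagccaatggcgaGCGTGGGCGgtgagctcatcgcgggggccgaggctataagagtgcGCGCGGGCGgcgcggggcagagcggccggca
Egr2: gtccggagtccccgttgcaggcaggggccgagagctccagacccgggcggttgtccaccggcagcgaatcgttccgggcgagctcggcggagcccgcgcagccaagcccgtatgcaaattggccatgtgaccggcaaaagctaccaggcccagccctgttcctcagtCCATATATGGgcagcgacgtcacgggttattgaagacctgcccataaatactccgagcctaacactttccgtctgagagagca
Fosb: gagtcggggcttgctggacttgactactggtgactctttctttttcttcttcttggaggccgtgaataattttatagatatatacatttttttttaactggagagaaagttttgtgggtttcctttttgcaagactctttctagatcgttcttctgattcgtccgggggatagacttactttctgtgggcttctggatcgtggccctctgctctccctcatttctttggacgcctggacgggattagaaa
Fosl1: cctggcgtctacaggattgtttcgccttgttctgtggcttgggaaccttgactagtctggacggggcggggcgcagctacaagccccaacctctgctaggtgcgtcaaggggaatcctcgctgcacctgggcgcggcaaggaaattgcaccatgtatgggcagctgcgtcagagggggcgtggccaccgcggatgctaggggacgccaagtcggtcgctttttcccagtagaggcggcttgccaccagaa
The Jund window held the cyclic AMP response element once and the Egr site 3 times. The cyclic AMP response element was found in 1 of the 7 windows and in 1.7% of 27457 windows of the same length, and the Egr site in 2 of the 7, Jund and Fosl2, and in 4.53% of all. The Egr2 window held 1 CArG box, from 83 to 74 bases before the start. That motif was found in 2 of the 7, Egr1 and Egr2, and in 1.5% of all. The AP-1 site was found in 0 of the 7 and in 3.98% of all, and the Fosb and Fosl1 windows held none of the 4 marked motifs. Shorter motifs were searched but not marked. TGACG was found in 5 of the 7 and in 19.0% of all, and GGGCGG in 4 of the 7 and in 32.4% of all. The Fosl1 window held both of these and the Fosb window held neither. These are matches of letters, and binding was not measured.

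**Figure D1:**
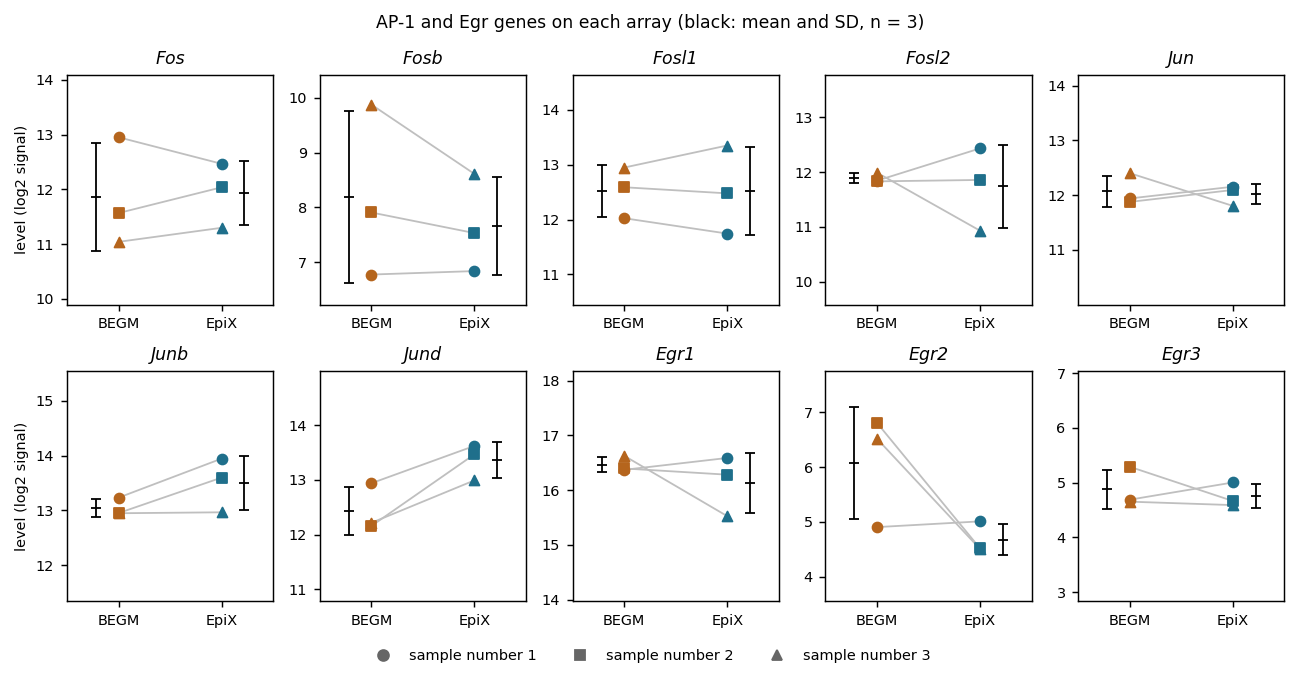
Level of each gene (log2 signal, with the same span in each panel) on the BEGM and EpiX arrays, with lines joining same-numbered arrays and black bars for the mean and SD of 3 arrays. Fos, Fosb and Fosl1 keep the same order of sample numbers in both media, Jund is the 1 gene whose groups do not overlap, and Egr2 is high on BEGM arrays 2 and 3 only.

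The Jun proteins are the partners that every AP-1 dimer of the Fos family needs. Levels are log2 signals, and a set of 3 values lists arrays 1, 2 and 3. Jund, the member that is often present without stimulation, read 12.94, 12.16 and 12.22 in BEGM and 13.62, 13.47 and 12.99 in EpiX. All 3 EpiX arrays lay above all 3 BEGM arrays, with a gap of 0.053 between EpiX array 3 and BEGM array 1. It was the 1 gene of the 10 whose groups did not overlap, where 28% of all genes had groups that did not. The difference came to 1.89-fold, with a 95% interval of 1.22-fold to 2.94-fold, and it was higher in EpiX in 3 of 3 same-numbered pairs, by 0.68, 1.31 and 0.78. With the sample number as a block, Jund rose (limma adjusted p = 0.0435), the 1 member called in a fit that called 8.33% of all genes, 3.94% as higher. With the number as a random block it did not pass (limma adjusted p = 0.0651). Leaving out BEGM array 1, which lay between the media on the first principal component of all genes, the limma adjusted p was 0.0166, and without any other single array it was 0.102 to 0.291.

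Junb, which can oppose Jun in epithelial growth control, read 13.23, 12.95 and 12.95 in BEGM and 13.94, 13.60 and 12.97 in EpiX. EpiX arrays 1 and 2 stood above every BEGM array, while EpiX array 3 lay within the BEGM range. The difference of 0.46 ± 0.26 (SE, n = 3 per medium) did not pass (limma adjusted p = 0.358), with a 95% interval from -0.15 to 1.07. Jun, the archetype of the family, read 11.94, 11.88 and 12.40 in BEGM and 12.15, 12.09 and 11.80 in EpiX. Its groups overlapped, with BEGM array 3 highest and EpiX array 3 lowest. The difference was -0.05, with a 95% interval from -0.51 to 0.40, and its sign turned when each array was centred on its median (0.07).

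**Figure D2:**
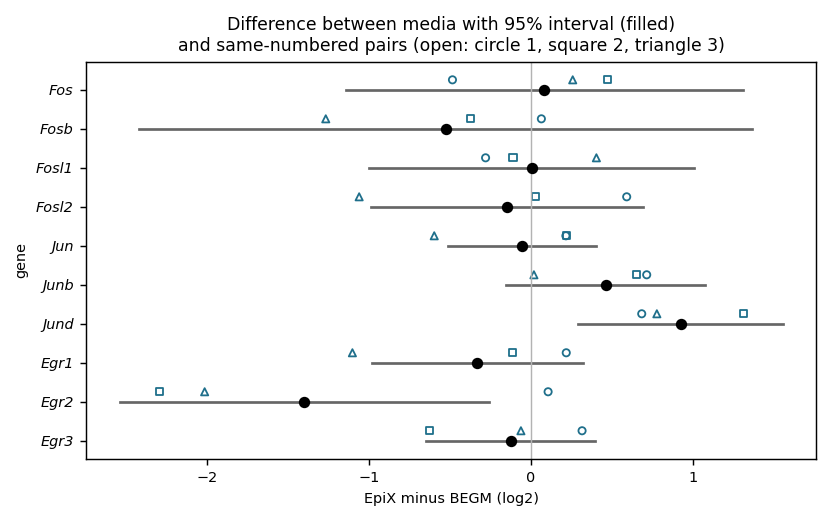
EpiX minus BEGM on the log2 scale for each gene, as the fitted difference (filled points) with its 95% interval (bars) and for each same-numbered pair (open symbols). The interval excludes 0 for Jund, from 0.29 to 1.55, and for Egr2, from -2.54 to -0.26, before adjustment over all genes.

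The Fos proteins cannot pair with each other and reach DNA through a Jun partner. Fos, the prototype of the immediate early genes, read 12.95, 11.57 and 11.04 in BEGM and 12.47, 12.04 and 11.30 in EpiX. In both media array 1 was highest and array 3 lowest. The media differed by 0.08 ± 0.52 (SE, n = 3 per medium; limma adjusted p = 0.955). Its same-numbered pairs gave -0.48, 0.47 and 0.26.

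Fosb, which is also made as a shortened protein by splicing, read 6.77, 7.91 and 9.88 in BEGM and 6.84, 7.53 and 8.61 in EpiX. The arrays of number 1 were the lowest and those of number 3 the highest in both media, the reverse of Fos. The difference between media was -0.53 ± 0.80 (SE; limma adjusted p = 0.762), and its 95% interval, from -2.42 to 1.36, was the widest of the 10 genes. Without BEGM array 3 the difference was 0.32.

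Fosl1, a Fos relative that lacks a strong activation domain and is known to be induced in airway epithelium by growth factor signalling, was at 12.02, 12.59 and 12.95 on the BEGM arrays. On the EpiX arrays it was at 11.74, 12.48 and 13.35. As for Fosb, array 1 was lowest and array 3 highest in both media. The mean was 12.52 in each medium, a difference of 0.0034 ± 0.42 (SE; limma adjusted p = 0.997) whose 95% interval ran from -1.0 to 1.01. The interval leaves room for EpiX levels up to 2.01-fold higher, and for a difference of about that size in the other direction, so equal levels were not shown.

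Fosl2, the closest relative of Fosl1, read 11.85, 11.83 and 11.99 in BEGM and 12.43, 11.86 and 10.93 in EpiX. The BEGM arrays lay close together (SD 0.089), and EpiX array 1 was above and EpiX array 3 below all of them (SD 0.76). The difference of -0.15 had a 95% interval from -0.99 to 0.69 (limma adjusted p = 0.858), and without EpiX array 3 it was 0.26.

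**Figure D3:**
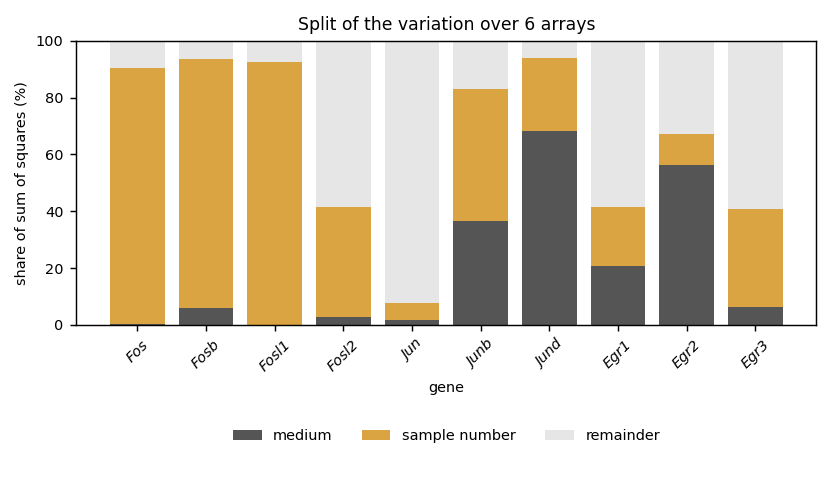
Share of each gene's sum of squares over the 6 arrays that lay between media, between sample numbers or in the remainder, in percent. The sample number holds 90.2% for Fos, 87.4% for Fosb and 92.7% for Fosl1, and the medium holds 68.2% for Jund and 56.4% for Egr2.

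The split of the variation over the arrays was mostly between numbers for Fos, Fosb and Fosl1 and mostly between media for Jund and Egr2. Of the sum of squares of Fos, 90.2% lay between sample numbers and 0.37% between media. For Fosb the shares were 87.4% and 5.98%, and for Fosl1 92.7% and 0.0010%. Jund had 25.7% between numbers and 68.2% between media, and Egr2 had 10.6% and 56.4%. The median over all genes was 31.5% between numbers, which spans 3 levels, and 28.1% between media, which spans 2. In both media the arrays 1, 2 and 3 stood in the same order for 4 of the 10 genes (Fos, Fosb, Fosl1 and Junb), where 21.6% of all genes did so.

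The difference between sample numbers, with the medium as a term, was tested after the values were seen. The limma F test gave an unadjusted p of 0.00522 for Fos, 0.00141 for Fosb and 0.00595 for Fosl1, and adjusted p of 0.36, 0.298 and 0.371. No gene passed this test after adjustment (0% of all genes called), and 8.53% had an unadjusted p under 0.05. The difference between numbers was therefore not established for any of the 3 genes. Over 12 measured fibroblast markers, the mean level was 6.15, 6.85 and 8.76 in BEGM and 5.43, 5.33 and 5.78 in EpiX. It was highest on array 3 in both media. The EpiX means lay near the negative-control medians of those arrays (5.24, 5.30 and 5.56), which were also highest on array 3. An order of the markers by sample number was therefore not shown in EpiX. The median difference of the 12 markers between media was -1.43. By limma 0 of the 12 were called, while 3 fell with the replicate block, 5 with array weights and 6 without BEGM array 1. Those fits called 8.33%, 13.2% and 13.9% of all genes, against 5.78% with the medium as the only term. Falls numbered 1 with the random block, 2 without BEGM array 3, and 0 without BEGM array 2 or any single EpiX array. The random block called 1212 genes in all, and the fits without 1 of those arrays 101 to 544. In a bulk sample fewer cells of a type and less RNA per cell cannot be told apart. The part of such cells in the levels of Fosb and Fosl1 was not tested.

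The Egr genes were lower in EpiX on average, and none passed. Egr1, a zinc finger factor induced by growth factors and injury, read 16.37, 16.40 and 16.63 in BEGM and 16.59, 16.28 and 15.53 in EpiX. The groups overlapped, and EpiX array 3 stood below the other 5 arrays. The difference was -0.33 ± 0.28 (SE, n = 3 per medium; limma adjusted p = 0.542), and without EpiX array 3 it was -0.030.

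Egr2, best known for its role in hindbrain patterning and in myelinating Schwann cells, read 4.90, 6.81 and 6.52 in BEGM and 5.01, 4.52 and 4.50 in EpiX. BEGM arrays 2 and 3 were high, and BEGM array 1 lay among the EpiX arrays. All 3 EpiX arrays and BEGM array 1 read below the median of the negative-control probe sets on the same array, which was 5.24, 5.30 and 5.56 in EpiX and 5.11 on BEGM array 1. The size of the difference was therefore not measured on the low side. Such readings lie in both media, so the fitted values may be too small or too large if the signal there was background. The difference was -1.40 ± 0.48 (SE; limma adjusted p = 0.147), with pair values of 0.10, -2.29 and -2.01. Without BEGM array 1 it was -1.99 and Egr2 fell (limma adjusted p = 0.00249), and in that fit 2 of the 10 genes, Egr2 and Jund, were called against 13.9% of all genes. The same 2 genes were called without both arrays of number 1, where 8.98% of all genes were, and with array weights, where 13.2% were.

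Egr3, a target and relative of Egr1, read 4.69, 5.29 and 4.65 in BEGM and 5.0, 4.66 and 4.59 in EpiX. These values overlapped, and all except that of BEGM array 2 lay below the negative-control median of their array. The difference of -0.12 had a 95% interval from -0.65 to 0.40 (limma adjusted p = 0.799), and it was 0.0026 with each array centred on its median.

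EpiX array 3 was the lowest EpiX array for 8 of the 10 genes, all except Fosb and Fosl1, and for 39.2% of all genes. The median of the 1153 negative-control probe sets was 5.56 on that array, against 5.24 and 5.30 on the other EpiX arrays and 5.11, 5.16 and 5.29 on the BEGM arrays. Its part in the levels of these genes was not tested. BEGM array 1 scored -7.24 on the first principal component, with -54.8 and -73.2 on the other BEGM arrays and 34.2 to 53.9 on the EpiX arrays. The basal cell label was checked against 13 measured markers, of which 5 rose and 2 fell in EpiX. Of all genes, 2.63% rose and 3.15% fell, and these shares apply to the other marker lists below as well. Krt15, a basal keratin, rose by 4.12, the water channel Aqp3 by 4.09 and the adhesion molecule Bcam by 3.11, while the membrane glycoprotein Pdpn fell by 2.96. The call of Krt15 ended without BEGM array 2, EpiX array 1 or EpiX array 2. Krt14, another keratin of basal cells, was at 16.61 ± 0.24 (SD, n = 3) in BEGM and 16.89 ± 0.21 in EpiX, while the leukocyte gene Ptprc was at 4.09 ± 0.067 and 3.89 ± 0.17. Of the other marker lists, secretory cells had 3 of 11 measured members higher (1 without any single array other than BEGM array 1), ciliated cells 0 of 7 called and endothelium 0 of 9 called. Smooth muscle and cartilage had 2 of 10 lower (1 without any single array other than BEGM array 1). The fits without 1 of those arrays called 101 to 544 genes in all, against 869 with all arrays. Leukocytes had 1 of 11 lower, Cd74, whose call ended without BEGM array 2, BEGM array 3, EpiX array 1 or EpiX array 2. All 3 EpiX arrays of Cd74 read below their negative-control medians.

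Other genes around AP-1 and Egr were followed in 9 lists. Of the 132 measured genes of these lists, 7 rose and 17 fell by limma, which is 18.2% of these genes against 5.78% of all. The lists were chosen with earlier results of these data known, so this share is a description. Among the bZIP partners of AP-1, 0 of 17 were called, with a median difference of 0.14. The stress factor Atf3 read 11.46, 11.23 and 10.56 in BEGM and 12.13, 12.13 and 11.42 in EpiX, a difference of 0.81 ± 0.30 (SE, n = 3 per medium) that had a limma adjusted p of 0.167, and of 0.0354 with the sample number as a block. The oxidative stress regulator Nfe2l2 differed by 0.75 (limma adjusted p = 0.126).

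Of 6 measured Egr relatives and co-repressors 1 rose, Klf5, a zinc finger factor of proliferating epithelium, by 1.54 ± 0.26 (SE; limma adjusted p = 0.0215), a call that ended without BEGM array 2, EpiX array 1 or EpiX array 2. Of 7 measured genes of SRF and its cofactors 1 fell, Fhl2, a LIM domain protein that binds both SRF and AP-1. It read 10.30, 10.75 and 11.10 in BEGM and 6.25, 6.75 and 6.80 in EpiX, so it fell by 4.12 on the log2 scale, and it kept its call without each single array. Of 20 measured kinases upstream 1 rose, Map3k1, which feeds the JNK pathway that phosphorylates Jun, by 1.04 ± 0.17. Its call ended without BEGM array 2 or any single EpiX array. The 1 of 20 called stands beside 5.78% of all genes. With the sample number as a block 3 of these kinases rose and 1 fell, in a fit that called 8.33% of all genes, 3.94% as higher. Of 6 measured genes for AP-1 turnover and cofactors 0 were called, with Tsc22d3, a glucocorticoid-induced protein that can bind AP-1, at a difference of 0.79 and the co-activator Crebbp at -0.28.

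The other immediate early genes did not move in 1 direction. Of 27 measured, 2 rose, 4 fell and 21 did not pass, with a median of 0.19 beside 0.0022 over all genes, and 2.63% of all genes rose and 3.15% fell. Ccn2, a matricellular growth factor gene, fell by 2.98 on the log2 scale, from 16.41 ± 0.39 (SD, n = 3) to 13.43 ± 0.11. The kinase Sgk1 fell by 1.78 and the small GTPase Rhob fell by 1.72. Ccn2 kept its call without each single array, while those of Sgk1 and Rhob ended without BEGM array 2, EpiX array 1 or EpiX array 2. The cytokine inhibitor Socs3 rose by 1.61, from 5.74 ± 0.37 to 7.35 ± 0.019, a call that ended without EpiX array 1 or EpiX array 2. With the sample number as a block 4 of the 27 rose and 5 fell, in a fit that called 8.33% of all genes. Without BEGM array 1, where 13.9% of all genes were called, 7 rose and 4 fell. Rises numbered 1 without BEGM array 2, BEGM array 3 or EpiX array 3 and 0 without EpiX array 1 or 2, and falls numbered 1 without BEGM array 2, EpiX array 1 or EpiX array 2. The fits without 1 of those arrays called 101 to 544 genes in all, against 869 with all arrays.

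**Figure D4:**
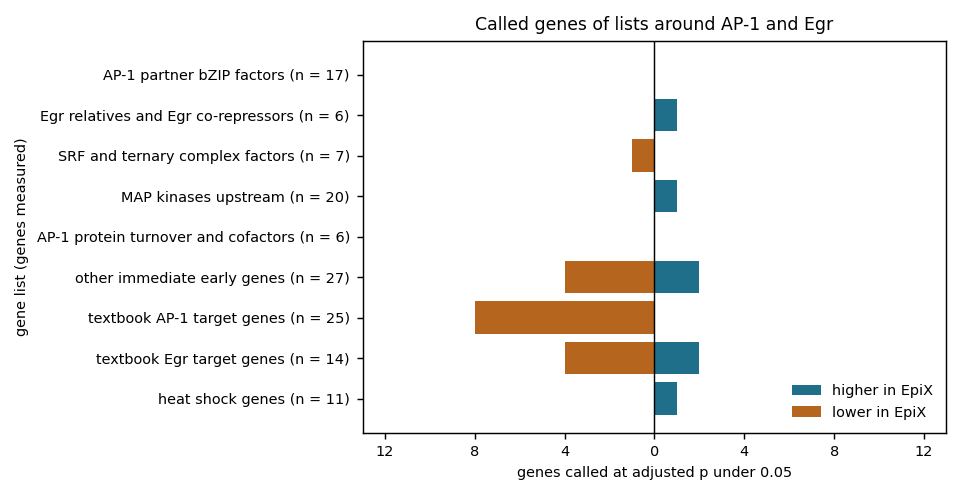
Number of genes called at a limma adjusted p under 0.05 in each list around AP-1 and Egr, to the right where higher in EpiX and to the left where lower, with the number measured beside each name. The AP-1 target list holds 8 lower and 0 higher of 25, while the list of AP-1 partners holds 0 called of 17.

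The textbook targets of AP-1 were lower in EpiX in 8 of 25 measured genes, higher in 0, and 17 did not pass, with a median of -0.92. Of all genes, 3.15% were lower. Spp1, a secreted phosphoprotein, read 10.97, 13.96 and 15.69 in BEGM and 4.91, 5.51 and 6.77 in EpiX. The media did not overlap, and within BEGM array 1 was lowest. EpiX array 1 lay below its negative-control median, and the call ended without BEGM array 2, EpiX array 1 or EpiX array 2. The fibronectin receptor chain Itga5 fell by 3.61 ± 0.60 (SE), the matrix metalloproteinase Mmp3 fell by 3.28 ± 0.70 and the protease inhibitor Timp1 fell by 2.96 ± 0.65. The call of Itga5 ended without BEGM array 2 or any single EpiX array. That of Mmp3 ended without BEGM array 2, BEGM array 3, EpiX array 1 or EpiX array 2, and that of Timp1 without any single array other than BEGM array 1. Marker values of stromal cells stand beside these falls. The fibroblast list had the median of -1.43 given above, and its collagen genes Col1a1 and Col1a2 differed by -3.86 and -3.71 without passing (limma adjusted p = 0.109 and 0.0720). The smooth muscle protein Cnn1 fell from 12.47 ± 1.63 (SD, n = 3) to 5.47 ± 0.40, with EpiX arrays 1 and 3 below their negative-control medians. Its list of smooth muscle and cartilage genes had a median of only -0.21, and 8 of its 10 measured genes were not called. The part of such cells in the levels of the AP-1 and Egr targets was not tested, and AP-1 activity was not measured. The falls numbered 12 without BEGM array 1, with 1 rise, in a fit that called 2089 genes in all, against 869 with all arrays. Without BEGM array 3 or without EpiX array 3 the falls numbered 5, in fits that called 544 and 418 genes in all. They numbered 0 by limma without BEGM array 2, EpiX array 1 or EpiX array 2, fits that called 192, 170 and 101 genes in all, with 2551, 2497 and 2320 at an unadjusted p under 0.05.

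The textbook targets of Egr factors moved both ways: 2 of 14 measured rose, 4 fell and 8 did not pass, with a median of -0.46. Of all genes, 2.63% rose and 3.15% fell. The matrix protein Thbs1 fell by 6.77 ± 1.10 (SE), from 15.64, 17.18 and 17.52 in BEGM to 8.38, 9.02 and 12.61 in EpiX, of which EpiX array 3 was the highest. The call of Thbs1 ended without BEGM array 2, BEGM array 3, EpiX array 1 or EpiX array 2. The growth factor Pdgfb fell from 8.64, 11.52 and 10.90 in BEGM to between 5.16 and 5.68 in EpiX, where arrays 1 and 2 lay below their negative-control medians, so no size is given for its fall. Its call ended without BEGM array 2, EpiX array 1 or EpiX array 2. Tissue factor F3 fell by 2.64 ± 0.26, while the stress cytokine Gdf15 rose by 2.70 ± 0.39. F3 kept its call without each single array, and that of Gdf15 ended without EpiX array 1 or EpiX array 2. The rises numbered 3 and the falls 7 without BEGM array 1, where 13.9% of all genes were called. Rises numbered 1 without BEGM array 2 or 3 and 0 without EpiX array 1 or 2, and falls 2 without BEGM array 3 and 1 without BEGM array 2, EpiX array 1 or EpiX array 2. The fits without 1 of those arrays called 101 to 544 genes in all, against 869 with all arrays. Of 11 measured heat shock genes 1 rose, the small chaperone Hspb8, by 0.82 ± 0.18 (limma adjusted p = 0.0468, and 0.0693 with the sample number as a block), and its call ended without any single array other than BEGM array 1, whose removal gave 4 rises and 1 fall in the list.

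The genes whose pattern over the 6 arrays was most like that of Fos, Jun, Fosl1 and Egr1 were sought by the root mean square difference of log2 values after each gene's mean was subtracted. Closest to Fos were Krt80, an epithelial keratin, at 0.098, Lims2 at 0.14 and Bicdl2 at 0.15. Krt80 read 15.80, 14.64 and 14.18 in BEGM and 15.61, 15.09 and 14.39 in EpiX, highest on array 1 and lowest on array 3 in both media. Closest to Fosl1 were B4galt6, a galactosyltransferase of glycolipid synthesis, at 0.076, Psrc1, a spindle protein, at 0.13 and H2ax, a histone variant, at 0.14. Closest to Jun were Rbm5 at 0.052, Tbc1d10b at 0.054 and Or8i2 at 0.059. Or8i2 read only 3.41 to 3.96, below the negative-control median of every array, so its pattern may be background. Closest to Egr1 were Tbc1d17 at 0.092, Foxn3 at 0.099 and Atg13 at 0.12. Atg13, an autophagy gene, was at 9.26 on EpiX array 3 and at 10.09 to 10.34 on the other 5 arrays.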

How the data were processed

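Expression was measured with arrays in rat basal cells in BEGM or EpiX (6 arrays, 3 per medium). The deposited table gives the authors' log2 value of 24834 probe sets on each array. The unit was taken from the values (2.62 to 18.66). Per the submitters' processing notes, the Transcriptome Analysis Console was used. Its role is not given in the sources used here, and scale, log base, normalization and centring stay unknown, so every fold assumes base 2. Array medians over the tested genes were 6.98, 7.02 and 7.13 in BEGM and 6.93, 6.93 and 6.90 in EpiX. Detection calls were not used here.

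Genes were named through the platform annotation, whose symbols matched RefSeq. Of the probe sets 15049 had 1 symbol and 0 several, 8139 had none and 1646 were controls. The brightest probe set was kept for 10 genes with several, which left 15037 genes.

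Limma 3.58.1 (R 4.3.3) fitted the medium as the only term, with p-values 2-sided and BH-adjusted over all genes. The 95% intervals are unadjusted. Alternatives were fits with the sample number as a fixed or random block, other normalization, filters, variance models and weights, and left-out arrays. The fit was tested on simulated data. As a check of the pairing, each array's deviation from its group mean was correlated over genes with that of the same-numbered array, which gave 0.32, -0.01 and 0.32 for numbers 1, 2 and 3, while arrays of other numbers gave -0.37 to 0.16. No label ties a number to a line, so the pairing is an assumption. The arrays of number 2 gave only -0.16 to 0.16 with every array of the other medium, so their -0.01 does not decide for or against the pairing. P-values measure the spread between these cultures, whose number limits the precision.

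The members and lists were chosen with earlier results of these data known. Named genes were the 10 members, and of each list up to 4 called genes with the largest differences, or 2 as values where none was called, and the 3 most alike genes for Fos, Jun, Fosl1 and Egr1. Krt14 and Ptprc were named after their values were seen.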

Additional observations from a re-analysis of the deposited data

How the results depend on the processing

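Of the 10 genes, Junb, Jund and Egr2 kept their direction in all 18 alternative settings. Jund was also called with the replicate block (limma adjusted p = 0.0435), with array weights (0.0226), without BEGM array 1 (0.0166) and without number 1 in either medium (0.0486). Egr2 was called with array weights (0.0319), without BEGM array 1 (0.00249) and without number 1 (0.00423). Members called higher were thus 1 in those 4 settings and members called lower 1 in those 3, and 0 in the others. Array weights called 13.2% of all genes and the fit without number 1 called 8.98%. The other 8 genes were called in none of the 18. The block changed no other call of a member, and of named list genes it ended those of Hspb8, Lypd2 and Cd74.

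Signs turned for Fosl1 with quantile normalization (-0.020) and array weights (-0.13), for Jun with array weights (0.011) and median centring (0.072), and for Egr3 with median centring (0.0026), which moved the median of all differences to 0.13. Leaving out arrays or numbers gave ranges that crossed 0: Fos -0.33 to 0.63, Fosb -1.23 to 0.32, Fosl1 -0.41 to 0.39, Fosl2 -0.52 to 0.31, Jun -0.19 to 0.22, Egr1 -0.61 to 0.052 and Egr3 -0.34 to 0.13. The cause was not tested.

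Over all genes, 869 were called (395 higher, 474 lower), 560 and 409 with median centring, 450 and 438 with quantile normalization, 1252 in all with the replicate block and 1987 with array weights. Leaving out arrays or numbers, which leaves fewer samples, gave 0 to 2089: 2089 without BEGM array 1, and 0 by limma without number 2, with 1582 genes at an unadjusted p under 0.05.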
